A study of Mus musculus with 4 samples.

Results

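The miRNAs of the miR-379 to miR-410 cluster were followed in mouse mandibular molar tooth germs from embryonic day 11 to 16 (E11 to E16). Members were the probes named for 34 precursors of this cluster, with each arm of a precursor kept as its own probe. The array carried 49 such probes among 696 miRNA probes, and 27 of the 49 were detected on at least 1 array. Total RNA came from tooth germs of untreated ICR embryos, an outbred laboratory strain, at E11, E12, E14 and E16, with no genetic modification named in the labels. Each stage had 1 Cy3-labelled Agilent miRNA array, and the sources used here do not say how many embryos or litters went into a sample. There are no replicates, so no difference between stages could be tested. Errors printed with ± are the measurement errors stated for each array and leave out any variation between embryos.

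Over these days the dental epithelium of the molar thickens, forms a bud and a cap, and reaches the bell stage. The cluster lies in the imprinted Dlk1-Dio3 domain, is found in placental mammals, and is transcribed from the maternal chromosome as part of a long non-coding transcription unit that includes Mirg. A mature miRNA is cut from the 5p or the 3p arm of a hairpin precursor and represses mRNAs mainly through its seed, bases 2 to 8. In neurons the transcription factor Mef2 drives the cluster, and miR-134 represses Limk1 in dendrites. The RefSeq table of assembly GRCm38.p6 held hairpins for 32 of the 34 precursors, all on the plus strand, within chr12:109709060-109743795, a span of 34.7 kb. Only 8 of the 32 hairpins lie inside the annotated Mirg transcript, from miR-154 to miR-410. The other 24 lie before it, so the name Mirg covers the distal end of the cluster in this annotation.

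The sequences below are those the results turn on, with the seed in capitals. They come from RefSeq (GRCm38.p6). The table held a mature sequence for 25 of the 27 detected probes and none for miR-376c and miR-487b. Old probe names carry no arm, so the arm of such a probe was taken from its current miRBase name.
The probes furthest down from E11 to E16, and both probes lost by E16:
miR-543: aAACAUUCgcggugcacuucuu
miR-409-3p: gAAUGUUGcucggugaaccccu
miR-369-5p: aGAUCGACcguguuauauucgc
miR-154*: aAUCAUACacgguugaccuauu
miR-323-3p: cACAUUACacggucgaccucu
miR-409-5p: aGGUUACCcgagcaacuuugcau
The probes that differed least or were higher at E16:
miR-376a: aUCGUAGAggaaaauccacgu
miR-411: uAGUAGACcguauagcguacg
miR-154: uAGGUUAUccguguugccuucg
A close relative of miR-376a, the other arm of miR-411, and the 1 member that peaked at E14, added after their values were seen:
miR-376b: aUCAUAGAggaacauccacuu
miR-411*: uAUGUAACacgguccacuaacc
miR-494: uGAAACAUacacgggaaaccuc

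The 25 sequences had 25 distinct seeds, so none of these detected members could be grouped by a shared seed. Of 300 pairs, 4 had seeds that differ at 1 base: miR-300 with miR-381, miR-376a with miR-376b, miR-379 with miR-411, and miR-410 with miR-411*. miR-300 and miR-381 have the same base at 19 of 22 positions counted from the 5′ end, and miR-376a and miR-376b at 18 of 21. Probes for such close sequences can take up each other's miRNA, and this was not tested here. Beyond these probes, 6 of the 25 seeds recur in other mouse miRNAs of the table. The seed of miR-329 is also that of miR-362-3p, and the seed of miR-379 that of miR-1193-5p. Within the cluster, the seed of miR-411* is also that of miR-379-3p, the other arm of miR-379, which was not among the detected probes.

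The cluster was detected more often than the array as a whole. The arrays detected 30% of all miRNA probes at E11, 31.8% at E12, 35.8% at E14 and 35.9% at E16. Of the 49 members, 26 were detected at E11 (53.1%) and 25 at each later stage (51.0%). Detected at all 4 stages were 23 members, against 28.3% of all miRNA probes, and 22 members were detected on no array. Those 22 include both probes of miR-485, both of miR-654 and both of miR-666, and the probes of miR-412, miR-496, miR-539, miR-544, miR-667, miR-668, miR-679 and miR-758. An undetected probe is listed at 0.1 and has no measured level.

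Deposited signals of the detected members were moderate. They ran from 6.63 to 272 at E11 with a median of 58.3, and from 7.45 to 614 at E16 with a median of 69.3. The medians of all detected miRNAs were 76.6 at E11 and 114.0 at E16. Deposited signals are not scaled between arrays. For comparison between stages each log2 signal was therefore taken relative to the 75th percentile of its array, taken over the 197 miRNAs with a detected signal at every stage, and a difference is later minus earlier. The 75th percentile itself was higher by 1.44 (log2) at E16 than at E11. Because of this shift the counts of members past 2-fold are given also on the deposited signals, and the member median is set beside the median of all miRNAs, a gap that constant shifts between arrays cannot change.

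**Figure D1:**
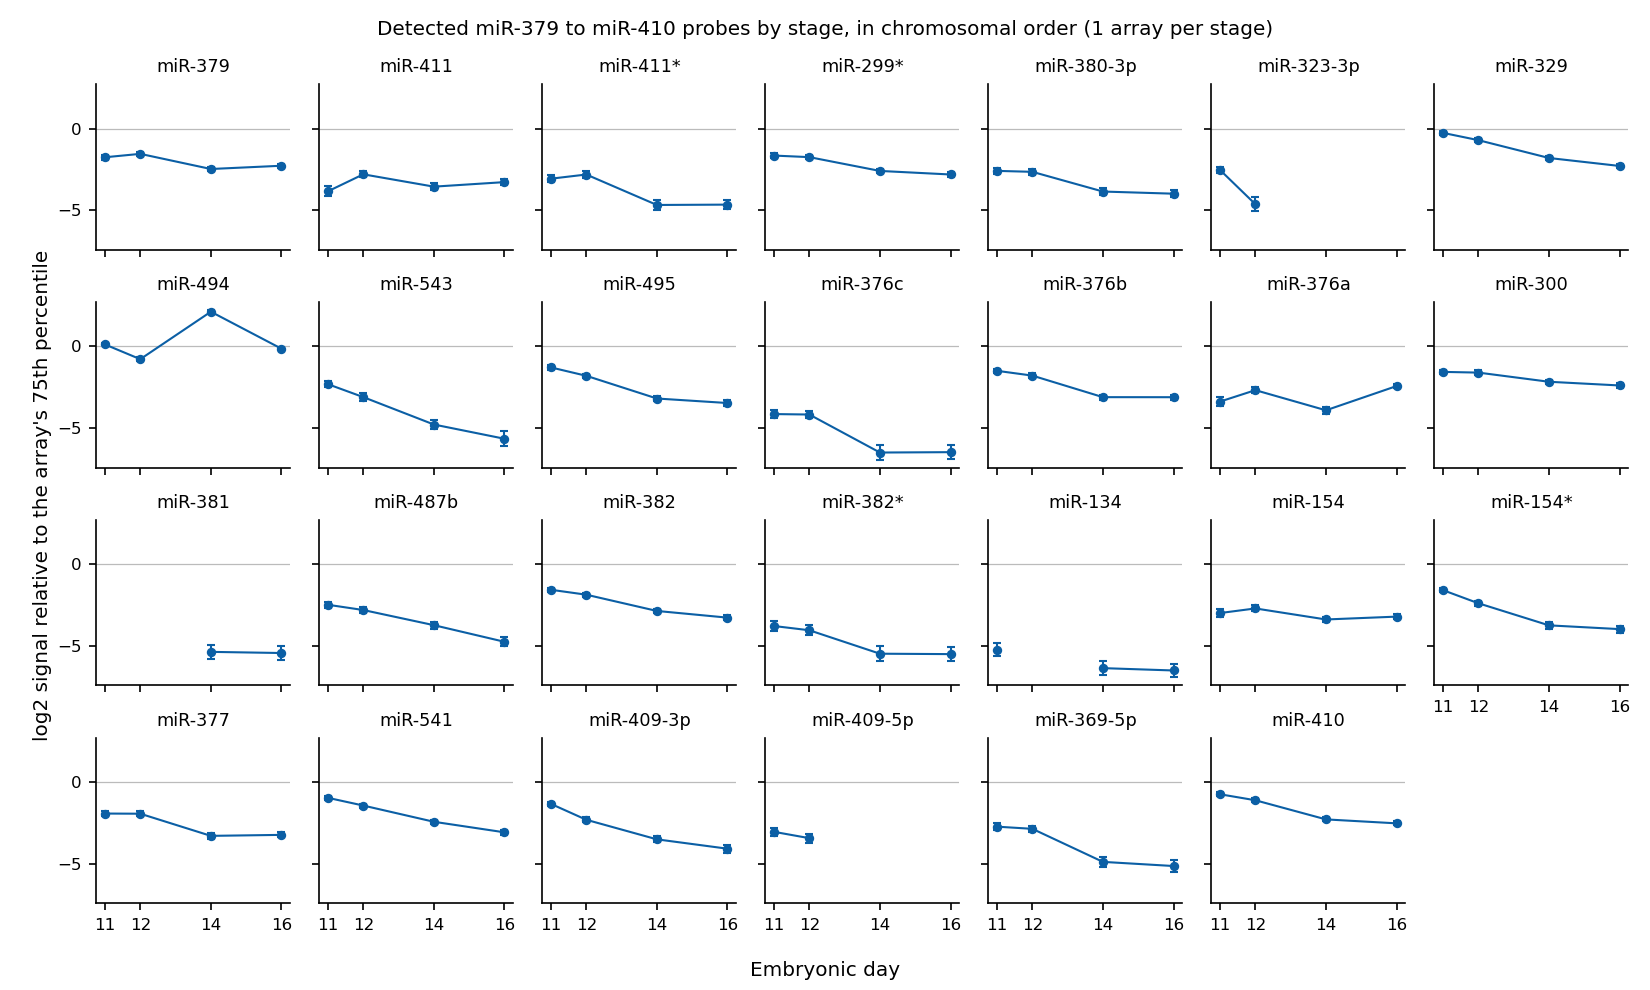
The scaled log2 level of each of the 27 detected probes is plotted against embryonic day, in chromosomal order, with 0 at the 75th percentile of the array and bars for the stated measurement error of 1 array per stage. Stages where a probe was not detected have no point. Most probes step down between E12 and E14; miR-494 instead peaks at E14, and miR-323-3p and miR-409-5p have no point after E12.

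After scaling, most members of the cluster were lower at E16 than at E11, whereas few passed 2-fold on the deposited signals. Of 24 members measured at E11 and E16, 18 were at least 2-fold lower at E16 (75%), where 37.6% of all 205 miRNAs with both values were. None was at least 2-fold higher, where 13.7% of all were. On the deposited signals 2 of 24 members were lower (4.39% of all miRNAs) and 4 higher (44.9% of all). The member median was -1.66 against -0.74 over all miRNAs, a gap of -0.92 under the scalings by a constant and -1.10 by quantile normalization. On the deposited signals the medians were -0.23 and 0.69. Of the 24 members, 19 lay below the median of all miRNAs (49.8% of all). With no replicates these counts describe 4 arrays, and fewer cells of an expressing type cannot be told apart from less RNA per cell.

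The step from E12 to E14 held most of this difference. Of the 23 members with a signal at E12 and E14, 14 were at least 2-fold lower at E14 (60.9%, against 15.1% of all 212 miRNAs), and 22 lay below the median of all miRNAs (50% of all). The exception was miR-494. It was also the 1 member at least 2-fold higher, as 12.7% of all miRNAs were. The member median was -1.20 against -0.40 over all. On the deposited signals 5 members were at least 2-fold lower (4.25% of all miRNAs): miR-376c, miR-369-5p, miR-411*, miR-543 and miR-382*. On those signals miR-494 was again the 1 member higher (17% of all). Of the 23 members, 22 were negative under all 5 different scalings.

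The steps before and after were small. From E11 to E12, 1 of 25 members was at least 2-fold lower (8.46% of all miRNAs) and 1 higher (9.45% of all), with a median of -0.29 against -0.20. The member that was lower was miR-323-3p and the one that was higher was miR-411. On the deposited signals 1 was lower (0.995% of all) and 2 were higher (22.9% of all). Of the 25, 14 lay below the median of all miRNAs (49.8% of all). From E14 to E16, 2 of 25 were lower (13.4% of all), miR-494 and miR-487b, and 1 was higher (7.36% of all), miR-376a. On the deposited signals 1 was lower (12.1% of all) and 1 higher (15.6% of all), and 16 of 25 lay below the median of all miRNAs (49.8% of all). The medians after scaling were -0.22 for the members and -0.06 for all miRNAs. Consecutive steps share an array, so their values are not independent.

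**Figure D2:**
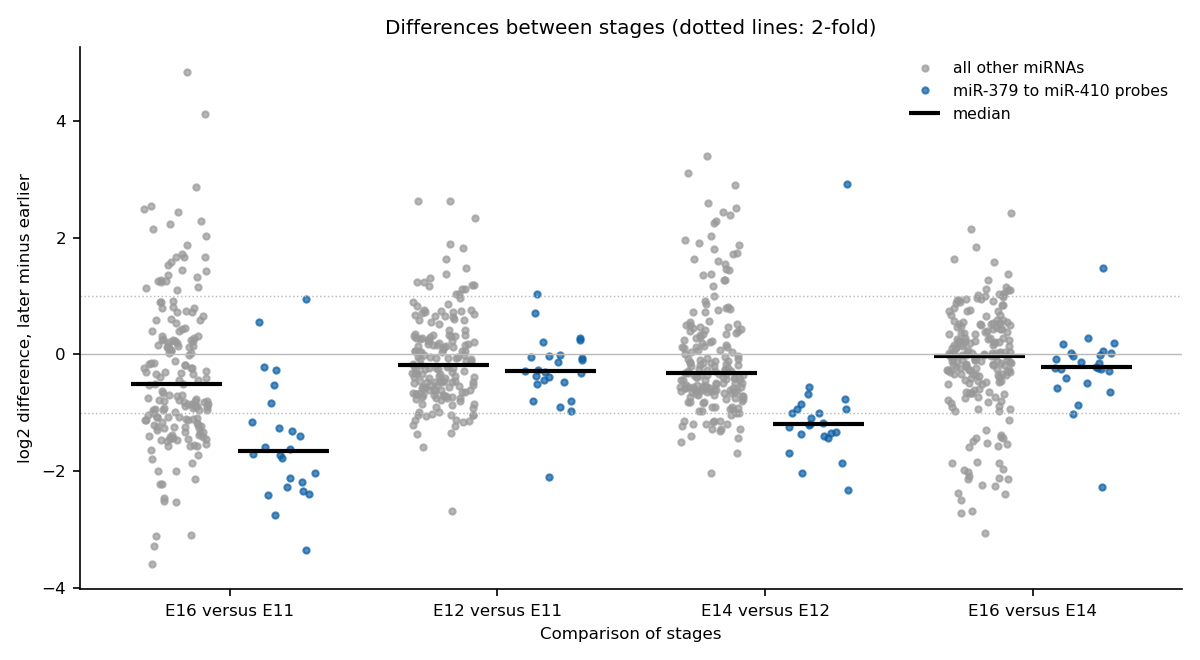
Each point is the log2 difference (later minus earlier stage, main scaling) of 1 probe detected at both stages, for the cluster and for all other miRNAs; black bars are medians and dotted lines mark 2-fold. In E14 versus E12 the cluster's points lie between -2.33 and -0.56 apart from miR-494 at 2.91, and in E12 versus E11 and E16 versus E14 the medians of cluster and other miRNAs lie close together.

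The course over the stages is first given without any scaling. Of the 23 members detected throughout, 15 had their highest deposited signal at E12 (65.2%, against 19.8% of the 197 miRNAs detected on all arrays). The highest signal fell at E16 for 55.8% of all these miRNAs but for 4 members, miR-379, miR-411, miR-376a and miR-154. It fell at E11 for miR-543, miR-154* and miR-409-3p. The lowest deposited signal was at E14 for 10 of 23 members, against 14.2% of all. After scaling, 15 of 23 members were lower at each of the 3 steps, against 32% of all. Without scaling 2 of 23 were, miR-543 and miR-409-3p, against 4.06% of all.

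Shares of the cluster in the signal of each array do not change with scaling by a constant. They are relative to the array's summed signal, which is a scaling of its own. The summed deposited signal of the members without miR-494 was 1639 at E11, 2117 at E12, 1292 at E14 and 1507 at E16. Without miR-494 the detected members made up 1.19% of the summed signal of all detected miRNAs at E11, 1.29% at E12, 0.588% at E14 and 0.747% at E16. With miR-494 the shares were 1.39%, 1.43%, 1.64% and 1.05%. At E14, 24 entries detected throughout were at least 2-fold above both E12 and E16 (12.2% of the 197), miR-494 among them. With these 24 left out of the sums, the other 22 members made up 1.23%, 1.34%, 0.834% and 0.819% of the signal of 173 miRNAs over the 4 stages in order. Sums of this kind follow the brightest probes.

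Single members are given in chromosomal order, with deposited signals for E11, E12, E14 and E16 and then the scaled difference from E11 to E16. miR-379, the first member, had signals of 73.7 ± 7.3, 135.4 ± 11.8, 94.5 ± 8.6 and 139.0 ± 11.8. It differed by -0.52 ± 0.19 (-0.55 to 0.92 over the scalings), so its direction depends on the scaling. The related miR-411 had 17.4 ± 3.8, 56.8 ± 7.7, 44.7 ± 6.0 and 69.3 ± 7.8. It was lowest at E11 and was 1 of 2 members higher at E16 under every scaling, at 0.56 ± 0.36 (0.48 to 1.997). The other arm, miR-411*, had 29.7 ± 4.5, 56.3 ± 7.7, 20.5 ± 4.1 and 26.7 ± 4.9, high at E12 and low from E14 on (-1.59 ± 0.35).

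miR-299* had signals of 79.2 ± 7.5, 117.8 ± 10.7, 87.1 ± 8.1 and 95.9 ± 9.2, and differed by -1.16 ± 0.19. miR-380-3p had 41.3 ± 5.7, 63.1 ± 7.8, 36.3 ± 5.6 and 42.4 ± 6.6 (-1.40 ± 0.30). Both had their highest deposited signal at E12, and for both the difference turned positive on the deposited signals, at 0.28 and 0.04. miR-323-3p had 42.9 ± 5.8 at E11 and 15.9 ± 4.8 at E12 and was not detected afterwards. Its difference from E11 to E12 was -2.10 ± 0.48. A nominal bound puts it at least 17.8-fold lower at E16 than at E11 (at least 6.58-fold on the deposited signals). The bound uses 6.51, the lowest signal detected on the E16 array. Detection also depends on the error of each probe, so the true bound may be smaller.

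miR-329 takes part with miR-134 and miR-381 in activity-dependent dendrite growth. Its signals were 207 ± 16, 242 ± 19, 150.9 ± 12.0 and 137.7 ± 11.7, and it was 4.07-fold lower at E16 (-2.03 ± 0.17, -2.06 to -0.59 over the scalings). E14 and E16 were both below E11 and E12. miR-494 was the 1 member detected throughout whose highest signal was at E14. Its signals were 272 ± 21, 231 ± 18, 2308 ± 174 and 614 ± 47, a scaled difference of 2.91 ± 0.16 from E12 to E14 and a difference of -2.27 ± 0.15 from E14 to E16. The 24 entries that peaked at E14 also included miR-370 and miR-3072* of the same imprinted domain, and 9 entries from miR-2132 to miR-2146. What these entries share was not tested.

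miR-543, known to repress N-cadherin in the developing cortex, showed the largest difference among members measured at both stages. Its signals were 50.3 ± 6.1, 46.2 ± 7.2, 19.2 ± 4.0 and 13.4 ± 4.3, and it was 10.1-fold lower at E16 (-3.34 ± 0.50, -3.67 to -1.91 over the scalings). miR-495, whose sequence has the same base as miR-543 at 18 of 22 positions, had 102.4 ± 9.1, 114.1 ± 10.7, 57.8 ± 6.6 and 61.1 ± 7.4 (-2.18 ± 0.22). Both were lower at E14 and E16 than at E11 and E12.

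The miR-376 members, known for A-to-I editing of their precursors in brain, moved apart. miR-376a had 24.0 ± 4.2, 62.1 ± 7.9, 35.0 ± 5.6 and 125.5 ± 11.0, with its highest signal at E16. It differed by 0.95 ± 0.28 from E11 to E16 (0.92 to 2.39 over the scalings) and by 1.48 ± 0.26 from E14 to E16. miR-376b had 88.7 ± 8.1, 115.2 ± 10.6, 61.2 ± 6.7 and 78.2 ± 8.2, and differed by -1.62 ± 0.20. miR-376c, of low signal, had 14.1 ± 2.6, 22.04 ± 3.56, 5.83 ± 1.86 and 7.58 ± 2.21 (-2.33 ± 0.50). From E12 to E14 all of these 3 were, after scaling, more than 2-fold lower, at -1.23 ± 0.30, -1.32 ± 0.21 and -2.33 ± 0.52. From E11 to E12 they differed by 0.70 ± 0.31, -0.29 ± 0.19 and -0.03 ± 0.35, and from E14 to E16 miR-376b differed by 0.00 ± 0.22 and miR-376c by 0.02 ± 0.62.

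miR-300 had signals of 84.8 ± 8.1, 130.8 ± 11.9, 117.8 ± 10.4 and 128.8 ± 11.5 (-0.83 ± 0.19, 0.60 on the deposited signals), level from E12 on before scaling. The close relative miR-381 was detected only at E14 (12.8 ± 3.8) and E16 (15.6 ± 4.4). miR-487b had 44.9 ± 5.9, 57.1 ± 7.7, 39.9 ± 5.8 and 25.2 ± 4.8 (-2.27 ± 0.34), and its lowest signal was at E16.

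miR-382 had 84.9 ± 7.7, 109.6 ± 10.1, 73.0 ± 7.2 and 70.3 ± 7.7 (-1.71 ± 0.21). Its other arm, miR-382*, had 18.2 ± 3.9, 24.2 ± 5.1, 11.9 ± 3.7 and 14.9 ± 4.4 (-1.72 ± 0.52). Both arms had their highest deposited signal at E12, whereas after scaling both were highest at E11. miR-134, the dendritic repressor of Limk1, was at the edge of detection with 6.63 ± 1.83 at E11, none at E12, 6.43 ± 1.89 at E14 and 7.45 ± 2.20 at E16. The lowest detected signal at E12 was 7.43, which gives a nominal bound of at least 1.42-fold lower at E12 than at E11 after scaling and none on the deposited signals. From E11 to E16 it differed by -1.27 ± 0.58 (-2.32 to 0.17 over the scalings).

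The precursors inside the annotated Mirg transcript begin with miR-154. miR-154 had 31.6 ± 5.3, 61.1 ± 7.7, 50.8 ± 6.2 and 73.4 ± 7.9 (-0.22 ± 0.29, 1.22 on the deposited signals). Its other arm, miR-154*, had 83.4 ± 7.6, 76.1 ± 8.4, 39.6 ± 5.7 and 43.2 ± 6.6, and was 5.22-fold lower at E16 (-2.39 ± 0.26, -2.42 to -0.95). On the deposited signals miR-154 was thus lowest at E11, and miR-154* highest there. After scaling miR-154* was still highest at E11, but miR-154 was lowest at E14, at -3.38 against -2.98 at E11. miR-377 had 66.3 ± 7.0, 104.6 ± 10.4, 54.2 ± 6.6 and 72.4 ± 8.0 (-1.31 ± 0.22, 0.13 on the deposited signals). miR-541 had 129.1 ± 10.6, 148.0 ± 12.6, 98.7 ± 8.7 and 80.7 ± 8.3 (-2.11 ± 0.19), with its lowest signal at E16.

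miR-409-3p had 99.7 ± 8.6, 80.9 ± 8.6, 46.8 ± 6.0 and 40.2 ± 6.5, and was lower at each stage than at the one before. It was 6.70-fold lower at E16 (-2.74 ± 0.27). It and miR-543 were the 2 members at least 2-fold lower under all scalings, with miR-409-3p at -2.78 to -1.31. The other arm, miR-409-5p, had 30.5 ± 5.3 at E11 and 37.0 ± 6.9 at E12 and was not detected at E14 or E16. A nominal bound puts it at least 12.6-fold lower at E16 than at E11, or 4.68-fold on the deposited signals. That bound again uses the lowest signal detected on the E16 array. Members with errors near that of miR-409-5p were detected there only at higher signals, such as miR-543 at 13.4 ± 4.3, so the true bound may be smaller. Of 209 miRNAs detected at E11 only 4 were not detected at E16 (1.91%), and miR-323-3p and miR-409-5p were 2 of them.

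miR-369-5p had 37.9 ± 5.6, 55.1 ± 7.6, 18.0 ± 4.0 and 19.3 ± 4.6, and was 5.32-fold lower at E16 (-2.41 ± 0.40). Most of that lay between E12 and E14, at -2.03 ± 0.38. miR-410, the last member, had 150.2 ± 11.7, 185.3 ± 14.6, 109.2 ± 9.2 and 118.2 ± 10.2 (-1.78 ± 0.17). Of the 24 members measured at E11 and E16, 14 were lower and 2 higher under all scalings. The direction of the other 8 depended on the scaling.

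**Figure D3:**
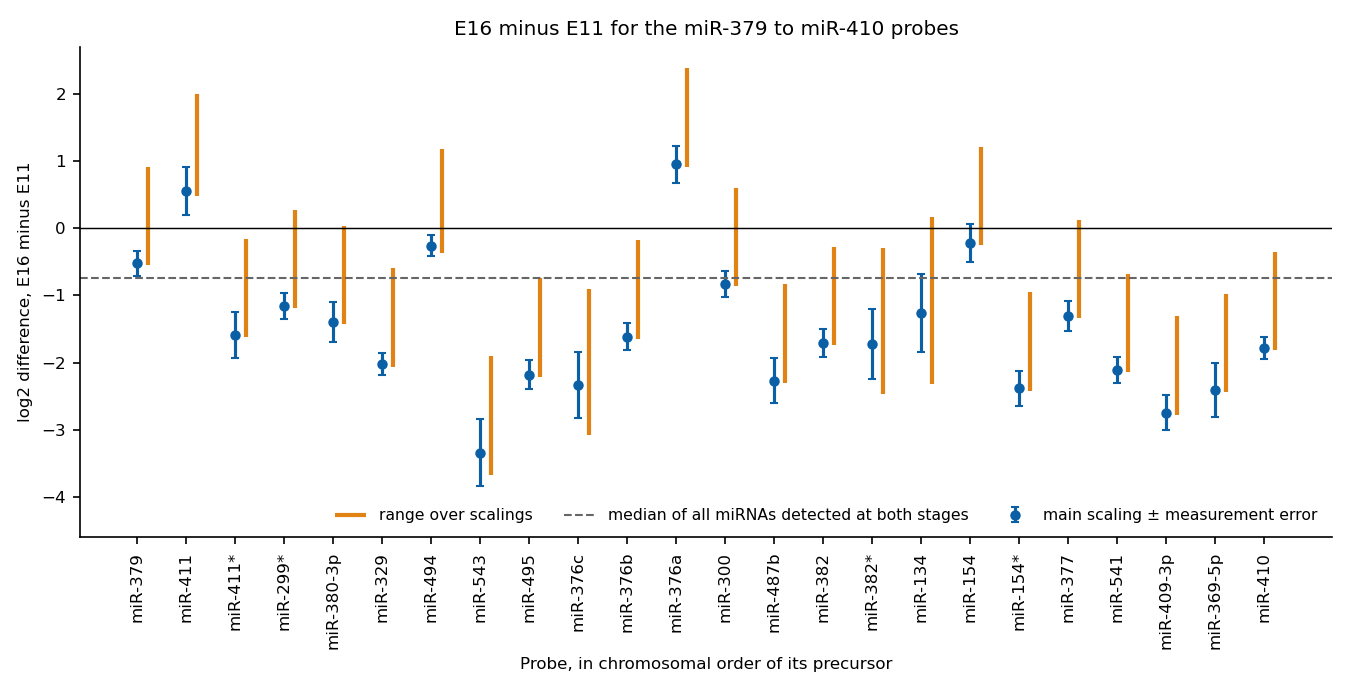
The log2 difference between E16 and E11 is plotted for the 24 probes detected at both stages, in chromosomal order; blue points are the main scaling with the combined measurement error, orange bars the range over the scalings, and the dashed line the median of all miRNAs. miR-411 and miR-376a stay above 0 and miR-543 and miR-409-3p below -1 over their whole range.

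Both arms were detected for 4 precursors, and their differences can be set against each other within an array, where scaling by a constant drops out. For miR-411 the difference of the 5p arm exceeded that of the 3p arm by 2.15 ± 0.50 (log2) from E11 to E16, or 4.44-fold (1.85 to 2.15 over the scalings). For miR-154 the corresponding value was 2.17 ± 0.39, or 4.49-fold (2.17 to 2.18). For miR-382 it was 0.01 ± 0.56, which reached 1.01 under quantile normalization, where miR-382* is low. Signals of miR-409 allow this only from E11 to E12, at 0.58 ± 0.42. The arms of miR-411 and miR-154 thus changed unequally by more than their measurement errors under every scaling, while for miR-382 the value passed its error only under quantile normalization. Without replicate arrays the spread between samples of these ratios is unknown.

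**Figure D4:**
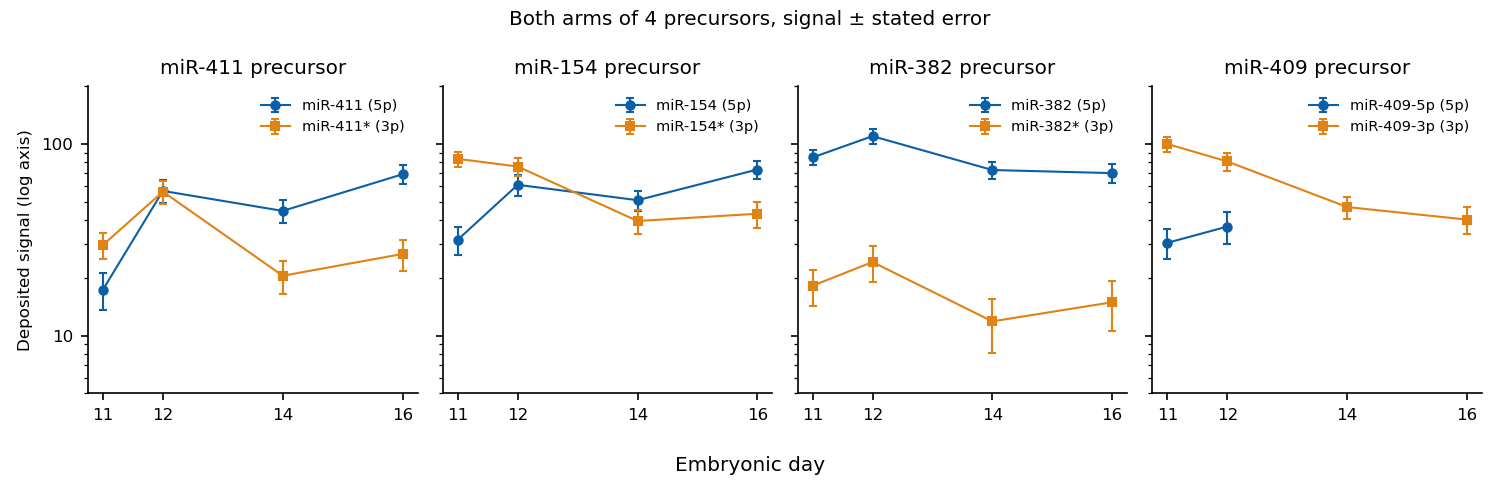
Deposited signals (log axis) with stated errors are plotted against embryonic day for both arms of the miR-411, miR-154, miR-382 and miR-409 precursors. Levels of different probes are not comparable, but their courses are: the 5p line climbs relative to the 3p line for miR-411 and miR-154, while both lines of miR-382 run in parallel from E11 to E12, and miR-409-5p has no point after E12.

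The rest of the Dlk1-Dio3 domain gave a reference from the same imprinted region. It had 30 other probes, 13 of them detected. From E11 to E16, 5 of the 9 that had both values were lower by at least 2-fold and 0 were higher (37.6% and 13.7% of all miRNAs), around a median of -1.34 against -1.66 in the cluster. Unscaled, 1 was lower and 2 were higher (4.39% and 44.9% of all), and the median turned to 0.10, against -0.23 in the cluster. The 3 of highest mean signal were miR-127 (-0.90 ± 0.16), a repressor of Rtl1, miR-434-3p (-1.55 ± 0.17) and miR-431 (-1.80 ± 0.23). Not counted among the 9 are miR-136 and miR-136*, detected at E16 (80.5 ± 8.3 and 20.9 ± 4.6) and not at E11. Their nominal bounds are at least 5.43-fold and 1.41-fold higher at E16 after scaling. From E12 to E14, 1 of 9 was at least 2-fold lower and 2 were higher, miR-370 and miR-3072* (15.1% and 12.7% of all miRNAs), with a median of -0.80 against -1.20. Unscaled, 0 fell past 2-fold and miR-370 and miR-3072* remained higher (4.25% and 17% of all), with medians of -0.39 and -0.79. With 9 probes and 1 array per stage, no difference between these sets could be tested.

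Markers of the tissue and of other cell types were read beside these values. Epithelial markers were all detected by E12, and their summed deposited signal went from 1795 at E11 to 9364 at E16. Of the 6 with a value at E11 and E16, 4 were higher by at least 2-fold (13.7% of all miRNAs), with a median of 1.35. On the deposited signals 6 of 6 were higher (44.9% of all). Of 4 mesenchymal markers, 2 were at least 2-fold lower (37.6% of all miRNAs), with a median of -1.01 against -0.74 over all. On the deposited signals 1 was lower (4.39% of all) and 1 higher (44.9% of all). The median on those signals was 0.43, against 0.69 over all. The summed signals of mesenchymal markers were 10881 at E11, 16901 at E12, 11101 at E14 and 12629 at E16. This sum was highest at E12 and lower at E14, as was the cluster's sum without miR-494. Of 8 neural probes 4 were detected on at least 1 array, with sums of 93.9 at E11, 179.7 at E12, 125.5 at E14 and 215.7 at E16, while miR-9, miR-9*, miR-124 and miR-132 were detected on no array. The 2 neural probes measured at E11 and E16 had a scaled median of -0.45. None of 4 muscle probes was detected. The blood sums were 404 at E11 and 1377 at E16, and the endothelial sums 240 at E11 and 791 at E16. These sums are unscaled, and the blood sum rests on 1 detected probe at E11 and 4 at E16. After scaling, miR-451, the 1 blood probe with both values, differed by 0.15 and the endothelial median was 0.09, with none past 2-fold. The part of these markers in the cluster's differences was not tested.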

How the data were processed

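The deposited intensity of each miRNA is Agilent's total gene signal with its error and a detection flag, per the file headers; an undetected miRNA is written as 0.1. The sources used here do not give the array design, software or background method. The authors' series value table also holds intensity on a linear scale. All 929 detected values were recovered from the signals within 0.1% by quantile normalization over the 718 features, so of 6 scalings 5 are different. Its columns have medians over detected values of 123 (E11), 106 (E12), 83.7 (E14) and 83.0 (E16); no centring was found.

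Control features (22) were left out of all summaries. The lowest and highest error of a detected member were 7.56% and 32.4% of its signal; the number of arrays limits the precision. Differences are in log2, with both stated errors combined. "Lower" or "higher" means at least 2-fold between stages that both detected the probe, a rule of size with no test. Signals were printed for each member detected on 2 or more arrays. Sequences were printed for the 6 largest and 3 smallest downward (or upward) differences from E11 to E16 among members detected throughout, for members lost by E16, and for shared seeds, where the table held them (not for miR-376c and miR-487b). Other Dlk1-Dio3 miRNAs are probes whose RefSeq gene lies between Dlk1 and Dio3; 1 whose name also lies elsewhere was left out. The steps were run in Python 3.11.15 with pandas 2.3.3 and numpy 2.4.6. Members and lists were chosen with earlier results of these data known.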

Additional observations from a re-analysis of the deposited data

How the results depend on the processing

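Each stage has 1 array, so no array could be left out. No paired analysis was possible because each stage has a single array. From E11 to E16 the deposited signals gave 2 of 24 members lower and 4 higher, against 18 and 0. Median scaling gave 14 lower and 2 higher. Quantile normalization and the authors' deposited values each gave 16 lower and 1 higher. The median of all miRNAs was -0.74 in the main scaling, -0.23 under median scaling, -0.41 under quantile normalization and 0.69 on the deposited signals. Shares of all miRNAs past 2-fold were counted only for the main scaling and the deposited signals. From E12 to E14 median scaling gave 9 of 23 lower, quantile normalization 11 and the deposited signals 5, against 14. From E11 to E12 (1 lower and 1 higher), the 75th percentile over all probes, quantile normalization and the authors' table each gave 3 lower and 0 higher, the deposited signals 2 higher, and a signal of at least 5 times its error 0 lower and 0 higher. From E14 to E16 (2 lower), the other scalings, the deposited signals among them, gave 1 lower each. The gap between the member median and the median of all miRNAs stayed negative in all 4 comparisons under every alternative. It ran from -1.10 to -0.81 for E16 versus E11 and from -0.80 to -0.62 for E14 versus E12. The stricter detection rule left 23, 23, 19 and 19 members detected at E11, E12, E14 and E16. Counting 1 probe per precursor gave 16 of 21 lower from E11 to E16 and 12 of 20 from E12 to E14. Low signals are measured least precisely; the highest error of a detected member, 32.4% of its signal, is that of miR-543 at E16.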

Other observations

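Split by arm, 13 of 16 members from the 3p arm were at least 2-fold lower from E12 to E14, with a median of -1.28, and 1 of 7 from the 5p arm, with a median of -0.93, where 15.1% of all miRNAs were. Unscaled, the counts were 4 and 1, where 4.25% of all were. Of the 5p members, miR-382 (-0.996) and miR-541 (-0.99) lay just short of 2-fold. From E11 to E16 the counts were 13 of 16 for the 3p arm (median -1.75) and 5 of 8 for the 5p arm (median -1.21), where 37.6% of all miRNAs were; on the deposited signals they were 2 and 0, where 4.39% of all were.

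Split by position, 6 of 7 members inside the annotated Mirg transcript were at least 2-fold lower from E11 to E16, with a median of -2.11. Of those upstream of it 12 of 17 were, with a median of -1.59, where 37.6% of all miRNAs were. Unscaled, 1 member was lower in each segment, miR-409-3p inside and miR-543 upstream (4.39% of all). On the same signals 1 of 7 inside, miR-154, and 3 of 17 upstream were at least 2-fold higher (44.9% of all). Those upstream include both members that were higher at E16 under every scaling, miR-411 and miR-376a. From E12 to E14 the medians were -1.20 inside and -1.15 upstream. Both splits were chosen after the values were seen, and no difference between their parts was tested.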
